A study of Homo sapiens with 9 samples.

Results

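The p300 peaks described here were called on human chromosome 19 in PC3, an established human prostate cancer cell line. They were taken by position from the 5 deposited peak lists (build hg19), leaving out the peaks of one recurrent cluster on the long arm between 36.77 and 36.80 Mb. This gave 933 of the 19861 peaks of the series, and 66 further peaks fell in the cluster. The short arm (peak midpoint below 24.5 Mb) held 583 of them and the long arm (27.5 Mb and beyond) held 350, with 0 in between. All cells were exposed to 20 Gy of ionizing radiation and fixed 1 h afterwards. The 2 untreated libraries came from cells that had no drug, and the 3 treated libraries (T2E in their titles) from cells kept for 24 h before irradiation in 30 µM MnTE-2PyP, a manganese-containing porphyrin with superoxide dismutase activity. The libraries are described as biological replicates of a single cell line. The 4 input libraries, and with them the copy number of the arms, were not analysed here. No unirradiated cells were part of these groups, so both groups carry the radiation.

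p300 is a histone acetyltransferase that is recruited by transcription factors to promoters and enhancers, and its peaks are commonly used to mark active regulatory DNA. Chromosome 19 is known as the human chromosome with the highest density of genes. It is also known for its high content of G and C, its many Alu elements and its clusters of KRAB zinc finger genes, which encode repressors that bind DNA. Gene density itself was not measured here, since the lists name no genes and no hg19 annotation was used, so the sites are given by position.

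Each list holds the position of every peak and a score whose scale is not named, which was therefore compared only within its own list. Read depth is unknown, and the lists outside the cluster differed in length from 514 to 10045 peaks, so measures that compare the arms were formed within a list. Treated list 3 contributed 20 peaks to chromosome 19 and limits every group comparison. Peak names of untreated list 1 and treated list 1 carry one run tag, those of untreated list 2 and treated list 3 another, and treated list 2 a tag of its own. The labels do not say what the tags stand for.

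p300 peaks were denser on chromosome 19 than on the other chromosomes in all 5 lists. The chromosome makes up 1.97% of the span covered by the lists. It held 3.82% of untreated list 1 (88 peaks, 95% Wilson interval 3.11 to 4.69%) and 4.98% of untreated list 2 (101 peaks, 4.11 to 6.01%). Among the treated lists it held 4.24% of list 1 (208 peaks, 3.71 to 4.84%), 5.14% of list 2 (516 peaks, 4.72 to 5.59%) and 3.89% of list 3 (20 peaks, 2.53 to 5.93%). These intervals cover counting error only. Per Mb, chromosome 19 had 1.98 and 2.61 times the density of the remaining chromosomes without the drug, and 2.20, 2.69 and 2.01 times with it. The remaining chromosomes keep any clusters of their own. With that of chromosome 19 kept too, the values were 2.22 and 2.86 times without the drug and 2.38, 2.77 and 3.42 times with it. The mean log2 ratio was 1.19 ± 0.207 (SD, n = 5 lists), positive in 5 of 5 lists, with an exact two-sided sign-flip permutation p = 0.0625 (0.109 after Benjamini-Hochberg adjustment over 7 comparisons with other chromosomes). With 5 lists 0.0625 is the smallest p this test can give. Ordered by density with its cluster left out, chromosome 19 took place 6 and place 2 among the 24 chromosomes without the drug, and place 6, place 1 and place 3 with it.

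The other small chromosomes gave a frame for these values. Chromosome 17 had 2.41, 2.48, 2.73, 2.31 and 0.791 times the mean density of the list (untreated 1 and 2, then treated 1 to 3). In the same order chromosome 19, with its recurrent cluster left out, had 1.94, 2.53, 2.15, 2.61 and 1.97 times. Chromosome 19 was the denser of the pair in 3 of 5 lists, with a mean log2 difference of 0.17 ± 0.678 (SD, n = 5, exact permutation p = 0.812, adjusted 0.812). Chromosome 22 had 0.596, 0.761, 0.490, 1.11 and 0.501 times the mean density in that order, and chromosome 18 had 0.224 to 0.761 times. The gene content of these chromosomes was not measured. Chromosome 19 exceeded both in 5 of 5 lists, by a mean of 1.76 ± 0.344 and 2.02 ± 0.659 on the log2 scale (SD, n = 5, exact permutation p = 0.0625 each, adjusted 0.109).

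The share of a list on chromosome 19 did not separate the groups. The untreated mean was 4.40% ± 0.817 (SD, n = 2) and the treated mean 4.42% ± 0.643 (SD, n = 3), a difference of 0.0225 points that is far below the spread within either group. The exact two-sided permutation test over the 10 ways to divide 5 lists into 2 and 3 gave p = 1.0, and the smallest p it can give is 0.1. Within the pairs of lists that carry one run tag, treated list 1 lay 0.418 points above untreated list 1, while treated list 3 differed from untreated list 2 by -1.09 points.

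Within the chromosome, p300 peaks were concentrated on the short arm in every list. Untreated list 1 had 59 peaks on the short and 29 on the long arm, and untreated list 2 had 65 and 36. The treated lists had 134 and 74, 313 and 203, and 12 and 8. Per Mb, short against long, the untreated densities were 2.41 against 0.918 and 2.65 against 1.14. The treated densities were 5.47 against 2.34, 12.8 against 6.43 and 0.490 against 0.253. The short arm was thus 2.62 and 2.33 times as dense as the long arm without the drug and 2.34, 1.99 and 1.93 times as dense with it. The mean log2 ratio of short over long arm was 1.16 ± 0.182 (SD, n = 5), positive in 5 of 5 lists (exact two-sided sign-flip permutation p = 0.0625, adjusted 0.25 over 4 arm contrasts). Relative to the other chromosomes of its list, the short arm stood at 2.91 to 4.04 times and the long arm at 1.22 to 1.98 times. With the recurrent cluster of the long arm kept, the mean log2 ratio was 0.62, positive in 4 of 5 lists (exact permutation p = 0.125), the exception being treated list 3 with 14 peaks in the cluster.

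The difference between the arms averaged lower in the MnTE-2PyP group, by an amount that did not separate the groups. The log2 ratios were 1.39 and 1.22 without the drug and 1.22, 0.99 and 0.95 with it, so that untreated list 2 and treated list 1 lay side by side and the groups overlapped. The means were 1.31 ± 0.122 (SD, n = 2) and 1.06 ± 0.147 (SD, n = 3), a difference of -0.25 (exact two-sided permutation p = 0.3, adjusted 1.0 over 5 group comparisons). Within the run tags, the treated minus untreated difference was -0.17 for the lists numbered 1 and -0.27 for treated list 3 and untreated list 2, with no partner for treated list 2. The ratio rests on few peaks in treated list 3, whose short arm held 60.0% of its 20 peaks (Wilson interval 38.7 to 78.1%). When only the 528 top-scoring peaks of each list were used, the difference changed sign to 0.74, with 8 to 20 peaks of each list left on the chromosome.

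**Figure D1:**
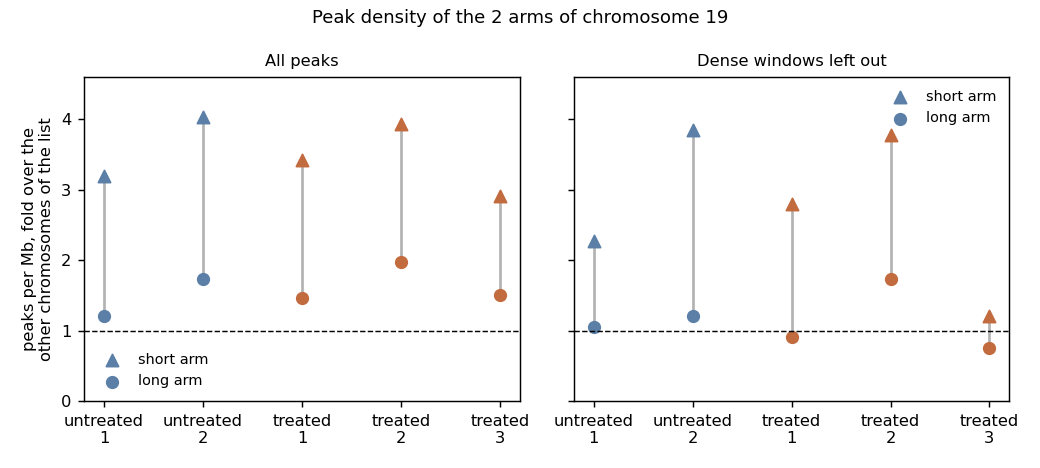
Peak density of the short arm (triangles) and long arm (circles) of chromosome 19 in each list, as a multiple of the density on the other chromosomes of the same list (dashed line: equal density), untreated in blue and treated in orange. Left, all peaks, with the short arm above the long arm in all 5 lists. Right, the same without the 4 dense windows of 50 kb, where the short arm is still the higher in all 5 lists and treated list 3 falls to 1.21 and 0.753. The other chromosomes keep any dense windows of their own in both panels.

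Along the chromosome the density followed a few broad stretches. Between 4 and 15 Mb of the short arm lay 459 of the 933 peaks. This stretch held 51 peaks in each untreated list, or 58.0% and 50.5% of their chromosome 19 peaks, and 124, 225 and 8 with the drug, or 59.6%, 43.6% and 40%. The first 4 Mb, at the tip of the short arm, held 22 peaks, of which 19 were in treated list 2. From 15 to 20 Mb there were 81 peaks, 63 of them in treated list 2, with 3 and 10 in the untreated lists, 5 in treated list 1 and 0 in treated list 3. The 4.5 Mb next to the centromere held 21 peaks, spread as 4, 3, 4, 6 and 4 over the 5 lists. Treated list 3 had the same number there as untreated list 1 and treated list 1, although it was the shortest list.

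The long arm was sparse for its first 8.5 Mb. From the arm border at 27.5 Mb to 36 Mb there were 16 peaks, 14 of them in treated list 2, 2 in untreated list 1 and 0 in the other 3 lists. The next 2 Mb held 58 peaks, of which 47 lay in a pair of narrow windows described below. From 38 to 48 Mb there were 32 peaks, and from 48 Mb to the last peak at 59.1 Mb there were 244. In that last stretch lay 21.6% and 23.8% of the untreated chromosome 19 peaks and 26.4%, 27.3% and 25% of the treated ones, the last of these being 5 of 20 peaks. The treated values all lay above the untreated ones. The stretch borders were drawn after the profile had been seen, so this was not tested.

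In bins of 1 Mb, 7 of 60 bins held a peak in all 5 lists and 5 held none in any list. Another 15 bins had peaks in a single list. The 5 fullest bins of the short arm began at 8, 5, 10, 11 and 4 Mb, with 108, 66, 50, 46 and 35 peaks. Those of the long arm began at 50, 55, 54, 36 and 37 Mb, with 66, 34, 30, 29 and 29 peaks. The bin from 8 to 9 Mb held 21 and 8 untreated and 30, 42 and 7 treated peaks, which made it the fullest of the chromosome in every list except untreated list 2, where the bin from 50 to 51 Mb held 9. Across 58 bins of the arms Spearman's rho was 0.538 to 0.784 among the 4 longer lists and 0.192 to 0.394 for the pairs with treated list 3. The highest value belonged to untreated list 2 and treated list 1, and the untreated pair reached 0.713. These are descriptions over bins that share the same chromosome, and no p is given.

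**Figure D2:**
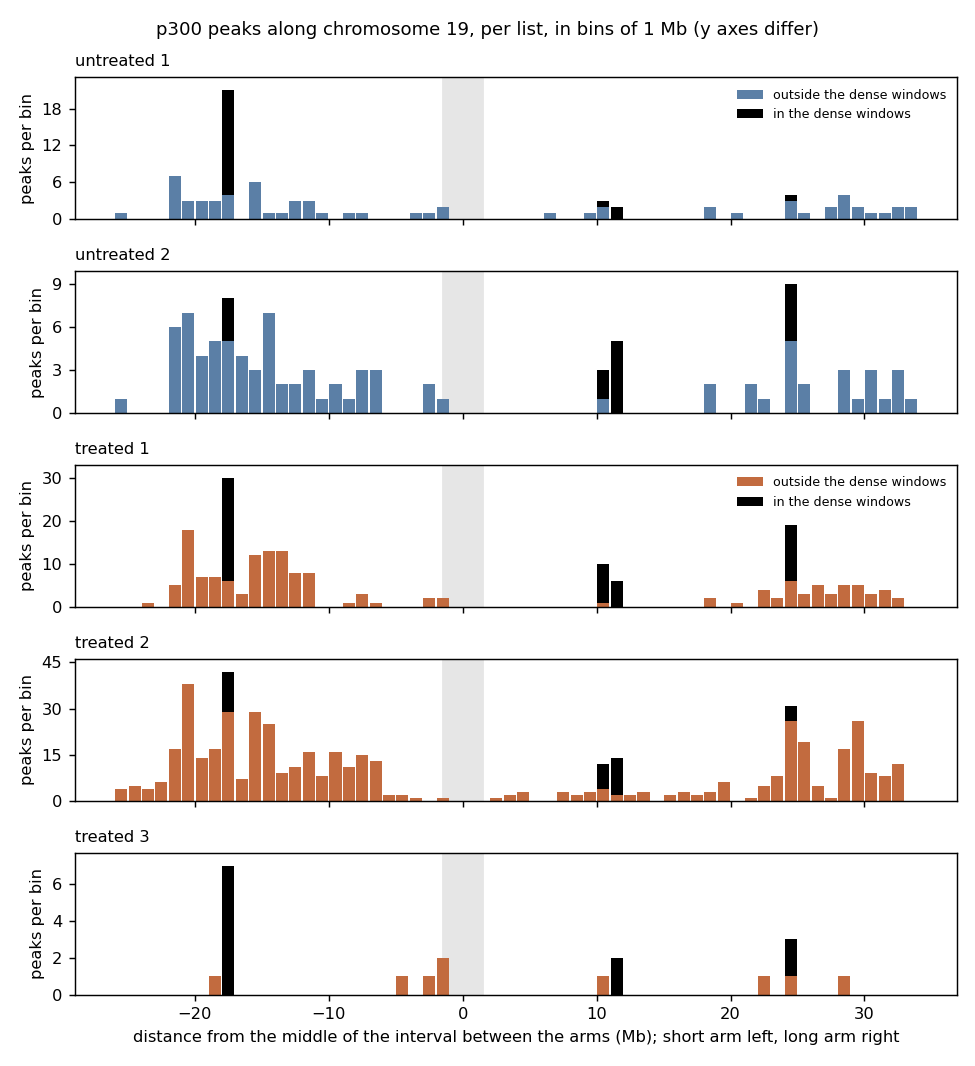
Number of p300 peaks in bins of 1 Mb along chromosome 19 for each list, plotted by distance from the middle of the interval between the arms (grey band), with peaks of the 4 dense windows in black. The short arm carries most peaks in all 5 lists, and the windows make up 11 of the 20 peaks of treated list 3.

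Part of the density came from 4 windows of 50 kb. On a fixed grid of such windows over the chromosome these held 64, 20, 27 and 25 peaks, while no other window held more than 8. Together they had 136 of the 933 peaks. Their share of the chromosome 19 peaks was 23.9% and 13.9% without the drug and 25%, 7.36% and 55% with it. The windows were picked after the peak counts had been seen and are described without a test. Neither repeat content nor input signal was examined, in the windows or at the regions named below. Whether these peaks mark p300 binding was therefore not tested.

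The fullest window, on the short arm at chr19:8850001-8900000, held its 64 peaks within 45.7 kb, from 8851629 to 8897340. Untreated lists 1 and 2 had 17 and 3 peaks there and treated lists 1 to 3 had 24, 13 and 7, so untreated list 2 was the lowest. A further window at chr19:36750001-36800000 held 1 and 2 untreated and 9, 8 and 0 treated peaks. Its last peak ended 0.386 kb before the recurrent cluster that was left out, so these peaks lie directly beside it. The window at chr19:37750001-37800000 held 2 and 5 untreated and 6, 12 and 2 treated peaks. The window at chr19:50600001-50650000 held 1 and 4 untreated and 13, 5 and 2 treated peaks.

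Leaving out the 4 windows kept the short arm denser in all 5 lists. The ratio of short over long arm became 2.17 and 3.20 without the drug and 3.08, 2.17 and 1.61 with it, a mean log2 ratio of 1.25 ± 0.410 (SD, n = 5, exact sign-flip permutation p = 0.0625). Against the other chromosomes, the whole of chromosome 19 without the windows stood at 1.51 and 2.25 times (untreated lists 1 and 2) and 1.65, 2.50 and 0.906 times (treated lists 1 to 3). The other chromosomes keep any dense windows of their own, so leaving out those of chromosome 19 alone lowers these multiples by construction. Treated list 3 had 9 peaks left outside the windows, and a like comparison was not made. By the same unlike measure, the long arm alone ran from 0.753 to 1.74 times. It was below the other chromosomes in treated lists 1 and 3.

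Outside the recurrent cluster, sharing between lists was lower on chromosome 19 than elsewhere in 4 of 5 lists. A peak was counted as shared where it overlapped a peak of any other list by 1 bp or more. On chromosome 19, the shared peaks made up 30.7% and 20.8% (untreated) and 24.0%, 8.53% and 90% (treated). On the other chromosomes it was 43.2% and 33.5%, and 27.7%, 14.3% and 84.2%. The mean difference was -5.78 points ± 7.62 (SD, n = 5, exact sign-flip permutation p = 0.25, adjusted 0.35), with treated list 3 the exception. The other chromosomes keep any clusters of their own, and with that of chromosome 19 kept the mean difference was -1.65 points ± 5.62, lower in 3 of 5 lists (exact permutation p = 0.625). The shortest list had the highest share and the longest list the lowest, on chromosome 19 and elsewhere.

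The arms did not differ in one direction. On the short arm 37.3% of the peaks of untreated list 1 were shared (22 of 59) and 12.3% of untreated list 2 (8 of 65). On the long arm the order of the untreated lists was the opposite, at 17.2% (5 of 29) and 36.1% (13 of 36). In the treated lists the short arm had 19.4%, 7.35% and 91.7% and the long arm 32.4%, 10.3% and 87.5%. Short minus long arm, the untreated lists gave 20.0 and -23.8 points and the treated lists -13.0, -3.00 and 4.17 points. Its mean was -3.12 ± 16.7 (SD, n = 5, exact permutation p = 0.75, adjusted 0.75). The groups averaged -1.88 ± 31.0 (n = 2) and -3.95 ± 8.64 (n = 3), a treated minus untreated difference of -2.07 (exact permutation p = 1.0, adjusted 1.0).

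The 4 windows held most of the shared peaks. Of the 136 peaks in them 96 were shared (70.6%), against 64 of the 797 outside (8.03%, Wilson interval 6.34 to 10.1%). Treated list 2 gave 478 of those 797 peaks. By list, the share outside ran from 4.18% (treated list 2) to 77.8% (treated list 3). The interval treats the pooled peaks as independent, although a shared peak makes its partner shared too. It does not cover the spread between lists. The windows were picked by peak counts added over all lists, so a site present in several lists counted several times. The pick thus favours shared peaks, and the contrast is in part built in. In untreated list 1, 16 of the 22 shared short-arm peaks lay in the window at chr19:8850001-8900000, where 16 of its 17 peaks were shared. In untreated list 2, 8 of the 13 shared long-arm peaks lay in the 3 long-arm windows. Outside the windows the share on the short and long arm was 14.3% and 12% for untreated list 1 and 8.06% and 20% for untreated list 2. It was 10% and 15.2% for treated list 1, 3.67% and 5.06% for treated list 2, and 80% and 75% for treated list 3. Over the 5 lists the difference of short minus long arm outside the windows averaged -2.25 points ± 6.64 (SD, n = 5, exact two-sided sign-flip permutation p = 0.5625), with both signs among the lists.

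**Figure D3:**
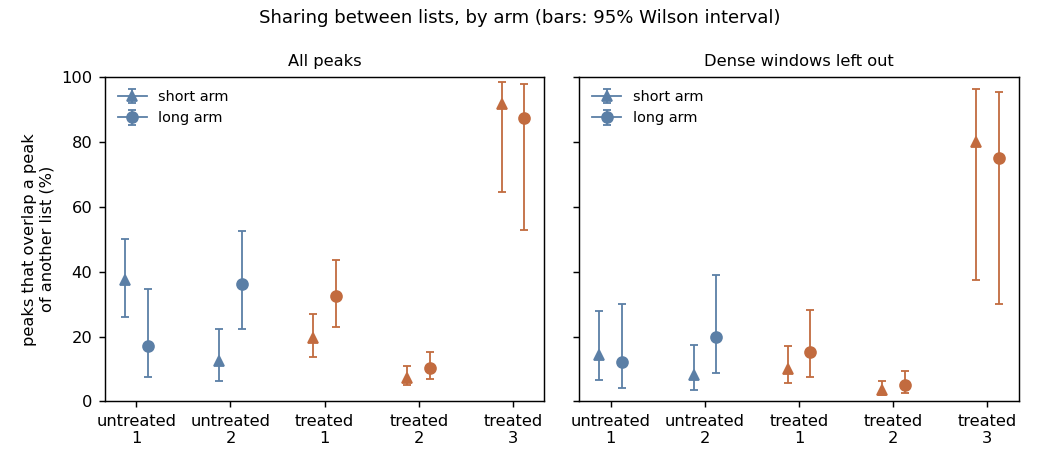
Percent of the chromosome 19 peaks of each list that overlap a peak of another list, on the short arm (triangles) and long arm (circles), untreated in blue and treated in orange, with 95% Wilson intervals. Left, all peaks, where the untreated lists differ in which arm is the more shared. Right, peaks outside the 4 dense windows, at 3.67% to 20% in the 4 longer lists.

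Merging overlapping peaks of all lists gave 830 regions on chromosome 19, 522 on the short and 308 on the long arm. Of these, 57 (6.87%) were in 2 or more lists, against 10.4% of all 16701 regions of the genome, and 493 short-arm and 280 long-arm regions were in a single list. The count was 29 on the short arm (5.56%) and 28 on the long arm (9.09%). Outside the windows 25 of 758 regions (3.30%) were in 2 or more lists, while in the windows, whose pick favours shared sites, 32 of 72 were. Regions in all 5 lists numbered 2 (0.241%, against 0.886% genome-wide), both on the short arm. The genome-wide values keep all recurrent clusters, so the like comparison keeps the cluster of chromosome 19 too. With it, 72 of 852 regions (8.45%) were in 2 or more lists and 8 (0.939%) in all 5, close to the genome-wide share.

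Regions present in every list of one group and absent from the other were few. A single region was in all 3 treated and no untreated list (0.120%, against 0.24% genome-wide), on the long arm at chr19:50620351-50620794. Its scores were 4.74, 4.93 and 4.81 in treated lists 1, 2 and 3, at percentiles of 11.8, 50.9 and 22.6 within those lists. A single region was in both untreated and no treated list (0.120%, against 0.186% genome-wide), on the short arm at chr19:8895042-8895450, with scores of 7.59 and 6.43. Both lay inside dense windows, and 0 of 758 regions outside the windows showed either pattern. In the wider set of 2 or more treated and no untreated list there were 19 regions (2.29%, against 2.93% genome-wide), of which 7 were on the short arm, 12 on the long arm and 9 in the windows. With the cluster kept, the same counts were 2 (0.235%), 1 (0.117%) and 24 (2.82%) of 852 regions. With so few regions these shares cannot be told from the genome-wide values, and no single region could be tested with 2 against 3 lists.

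The 11 regions in 4 or 5 lists were 9 on the short and 2 on the long arm, and 7 of them lay in dense windows. The region with the highest mean percentile lay outside the windows at chr19:11380604-11381147 and was 544 bp wide. It scored 12.6 and 11.9 (untreated) and 13.4 and 13.3 (treated lists 1 and 2), at percentiles of 76.4, 94.5, 87.4 and 96.4, and treated list 3 had no peak there. The region at chr19:8860538-8861786, inside the fullest window, was 1249 bp wide and in all 5 lists. Its highest score per list was 13.0 and 13.1 (untreated) and 32.6, 14.97 and 9.40 (treated). This was the highest-scoring chromosome 19 peak of untreated list 2 and of treated list 1.

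The other region in all 5 lists lay next to the centromere at chr19:24184473-24185122, 650 bp wide and outside the windows. The untreated scores were 3.23 and 5.12 and the treated scores 17.9, 7.08 and 39.3. The percentiles were 0.800 and 48.8 without the drug and 92.1, 82.4 and 98.8 with it, so that the 3 treated values all lay above both untreated values. It was the seventh highest of the 514 peaks of treated list 3 and close to the lowest of untreated list 1. This region was picked for its presence in all lists, not for its rank, yet the order was noticed after the values were seen and was not tested. A percentile depends on the other peaks of its list, and the lists differ in length. Percentiles of different lists are thus not on a common scale. A neighbouring region at chr19:24183605-24183854 was in 3 lists, at the 57.9 percentile of untreated list 1, the 55.2 percentile of treated list 1 and the 72.4 percentile of treated list 3.

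Also outside the windows, the region at chr19:18977275-18977759 was in all lists but treated list 3, with untreated percentiles of 54.3 and 28.3 and treated percentiles of 93.2 and 97.0. It was the top chromosome 19 peak of treated list 2, with a score of 15.3. The long-arm region at chr19:36066333-36066828 was in all lists but treated list 2, with untreated percentiles of 35.8 and 94.3 and percentiles of 17.8 and 96.3 for treated lists 1 and 3. There the 2 lists with the run tag of untreated list 2 were high and the other 2 low. The percentiles at these regions, too, come from lists of unlike length and are not on a common scale. The top peak of untreated list 1 was on the long arm at chr19:44915542-44915820, with a score of 17.5, and was shared with treated lists 1 and 2. It stood only 336th of the 2302 peaks of that list.

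The remaining regions in 4 lists were 5 on the short arm inside the fullest window, from 8851629 to 8893472, and 1 on the long arm at chr19:37773352-37774286. All 6 were absent from untreated list 2 and present in the other 4 lists. They were 403 to 1638 bp wide, and treated list 3 ranked the 5 short-arm regions lowest, at percentiles of 12.5 to 39.7.

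Chromosome 19 peaks were of lower score rank than the other peaks of their list. The median percentile on chromosome 19 was 41.4 and 48.3 without the drug and 46.6, 42.0 and 43.3 with it. On the other chromosomes it was 50.7 and 50.3, and 50.2, 47.0 and 51.5. The difference was negative in 5 of 5 lists, from -9.23 to -2.01, with a mean of -5.58 points ± 3.07 (SD, n = 5, exact sign-flip permutation p = 0.0625, adjusted 0.109). The top 10% of each list held 0, 5, 12, 27 and 2 chromosome 19 peaks in the order of the lists. That was 0% of the 88 in untreated list 1, 4.95% to 5.77% of those in untreated list 2 and treated lists 1 and 2, and 10% of the 20 in treated list 3. Peaks in the windows ranked higher than those outside in 4 lists, with medians of 41.5 against 35.8, 61.2 against 43.4, 63.9 against 42.3 and 76.4 against 40.7, but lower in treated list 3, at 24.1 against 69.7. The windows are the same in every list and were picked by counts that favour shared sites, and this difference was not tested. For treated list 3 the order of chromosome 19 and the rest reversed without the windows. The rest keep any dense windows of their own.

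Neither arm ranked higher throughout. For untreated lists 1 and 2 the median percentile on the short and long arm was 41.5 and 36.8, and 41.2 and 54.3. For treated list 1 it was 46.6 and 46.5, for treated list 2 42.0 on both arms, and for treated list 3 35.3 and 47.96. The equal medians of treated list 2 are a tied value, since its 10045 peaks had 1167 distinct scores. The mean difference of short minus long arm was -4.17 points ± 8.17 (SD, n = 5, exact permutation p = 0.5, adjusted 0.667). It averaged -4.19 ± 12.6 without the drug (n = 2) and -4.15 ± 7.36 with it (n = 3), a difference of 0.0414 points (exact permutation p = 1.0, adjusted 1.0).

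Peak widths on chromosome 19 stayed close to those of the whole list. The lists had different least widths, at 199 and 332 bp for the untreated and 193, 291 and 200 bp for the treated ones, so widths were compared only within a list. Median widths on the short and long arm were 217 and 235 bp (untreated list 1) and 393 and 414.5 bp (untreated list 2). For treated lists 1 to 3 they were 225.5 and 230 bp, 338 and 315 bp, and 230.5 and 267 bp. Short-arm peaks were the narrower in 4 of 5 lists, treated list 2 being the exception. The mean difference was -11.5 bp ± 22.4 (SD, n = 5, exact permutation p = 0.375, adjusted 0.667), and it became 10.8 bp with mean widths. By group it averaged -19.8 bp ± 2.47 (n = 2) and -6.00 bp ± 29.8 (n = 3), and the difference of 13.8 bp was smaller than the spread of the treated lists (exact permutation p = 0.7, adjusted 1.0).

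Peaks inside the dense windows were wider than those outside. For untreated lists 1 and 2 the median width was 248 bp inside and 209 bp outside, and 594.5 and 377 bp. For treated lists 1 to 3 it was 259 and 213 bp, 366 and 322.5 bp, and 274 and 233 bp. The widths inside were thus the larger in 5 of 5 lists. The same windows, picked from these lists by counts that favour shared sites, define the inside in every list. The lists are thus not independent here, and the difference was not tested. By arm, the short arm of treated list 3 was the exception, at 223 bp inside (7 peaks) and 231 bp outside (5 peaks). In every other combination of arm and list the median inside was the larger. The widest chromosome 19 peak was 1389 bp, on the short arm in treated list 1. The lower quartile on the short arm equalled the narrowest width of the list for both untreated lists (199 and 332 bp), and in treated list 2 it did so on both arms (291 bp).

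**Figure D4:**
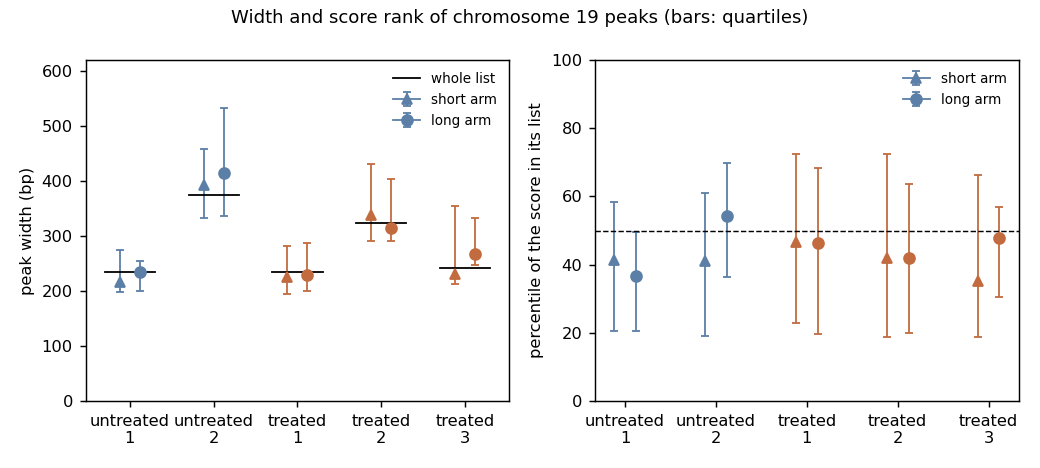
Median width (left, bp) and median percentile of the score within its own list (right) of the chromosome 19 peaks on the short arm (triangles) and long arm (circles), with quartiles as bars, untreated in blue and treated in orange. Black lines mark the median width of the whole list and the dashed line the 50th percentile, below which the medians of 9 of the 10 arm and list combinations lie.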

How the data were processed

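p300-bound DNA was sequenced from 5 libraries. MACS2 and hg19 are named in the submitters' processing notes, and the authors deposited 1 list per library with a score per peak. For aligner, versions, threshold and control: not given in the sources used here. Members, measures and lists were chosen with earlier results of these data known. Density used 24.5 Mb for the short arm and 31.6 Mb for the long arm, up to the last peak. Rank is the mid-rank percentile of the score in its whole list, cluster included. Peaks overlapping by 1 bp or more were merged. Arm contrasts were tested over 5 lists by sign flips (32 patterns) and group differences over 10 divisions of the lists, both exact and two-sided. The replicate titles number the lists. Among lists of the same number in both groups, only those numbered 1 share a run tag, so numbers were not taken as pairs. Named regions are those in 4 or 5 lists, in all treated or both untreated lists alone, each list's top peak and the 5 fullest bins per arm; other regions and the stretches were picked after their values were seen. The comparisons with other chromosomes, also with the cluster kept, and the dense windows (at least 10 peaks per 50 kb) were added after seeing the data. On simulated data, 100% of 40 planted regions were recovered. These stood apart from all other simulated peaks, so merging in crowded windows was not tested. Alternatives were a score minimum, equal list lengths, other overlaps, borders and summaries, and leaving out each list. Python 3.11.15, numpy 2.4.6, pandas 2.3.3 and scipy 1.17.1 were used. Sequence and annotation of hg19, and the input libraries, were not used here.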

Additional observations from a re-analysis of the deposited data

How the results depend on the processing

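The denser short arm kept its direction in all 14 alternatives, with mean log2 ratios from 0.62 (recurrent cluster kept, exact permutation p = 0.125) to 1.31. Every other arm contrast, group difference and region count put through them changed direction or, for counts, moved past 1.5 times somewhere. The comparisons with other chromosomes were rerun at most with the cluster kept or the dense windows left out. With the cluster kept, their density and rank differences kept their sign in 5 of 5 lists. With the dense windows left out, both reversed in treated list 3 and kept their sign in the other lists. Treated list 3 then stood at 0.906 times the density, with a median percentile of 69.7 against 51.5 elsewhere. The other chromosomes keep any dense windows of their own. Contrasts are short minus long arm, and group differences are treated minus untreated. Keeping scores above the pooled median gave a sharing contrast of 6.57 points and a rank contrast of 4.48 points, and group differences of 5.39 points (sharing), -5.92 bp (width) and -0.265 points (rank). Regions in 2 or more lists fell to 28 and those in all 5 lists to 1. With the top 528 peaks of each list, which leaves 8 to 20 peaks per list, the contrasts were 24.3 points (sharing, exact permutation p = 0.0625) and 72.9 bp (width), and the group differences 0.74 (log2 density ratio) and 8.61 points (sharing). The region counts were then 10 in 2 or more lists, 1 in all 5 and 0 in both untreated lists alone. With the cluster kept, the sharing group difference was 7.73 points, with 8 regions in all 5 lists and 2 in all treated lists alone.

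Leaving out the dense windows and setting 1 common score minimum were chosen after seeing the data. The former gave group differences of -0.367 points (chromosome 19 share) and 4.29 points (sharing), 25 regions in 2 or more lists, 1 in all 5 and 0 of either single-group pattern. The latter gave a rank group difference of -0.730 points. Merging within 500 bp left 0 regions in both untreated lists alone. Without the 2 Mb next to the centromere the rank group difference was -3.48 points, and 1 region was in all 5 lists. Without the 2 Mb at the arm ends the sharing and rank group differences were 1.29 and -0.134 points. Without the busiest bin of each arm the rank contrast was 0.979 points and the sharing group difference 5.52 points, with 35 regions in 2 or more lists, 1 in all 5 and 0 of either single-group pattern. Group medians gave a share difference of -0.160 points, and mean width a contrast of 10.8 bp.

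Leaving out each list in turn gave sharing contrasts from -9.86 to 4.49 points, above 0 without untreated list 2, treated list 1 or treated list 2. The group differences ran from -0.555 (without untreated list 1) to 0.600 points for the chromosome 19 share, from -19.9 to 20.6 points for sharing, from -0.750 to 29.0 bp for width and from -8.86 to 8.94 points for rank. Region counts ran from 35 to 53 in 2 or more lists, from 2 to 8 in all lists left, from 1 to 15 in all treated lists left alone and from 1 to 81 in all untreated lists left alone, since fewer lists then define each set. With the replicate number as a block the group differences were -0.20 (log2 density ratio), 0.288 points (share), -6.13 points (sharing), 29.0 bp (width) and 4.29 points (rank), all in the direction of the unblocked values. Pairing by run tag gave -0.334 points (share), -0.750 bp (width) and -2.03 points (rank), all reversed. The causes of these changes were not tested, beyond the smaller numbers of peaks or lists that an alternative leaves by construction.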
